A study of Mus musculus with 8 samples.

Results

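Interferons act through heterodimers of class II cytokine receptor chains, and the genes of 6 such chains were followed here across the cell classes of the mouse cortex. They were the rows of the count matrices whose symbol was *Ifnar1*, *Ifnar2*, *Ifngr1*, *Ifngr2*, *Il10rb* or *Ifnlr1*, 6 of 31053 genes, and each symbol matched a single row. IFNAR1 and IFNAR2 together form the receptor for the type I interferons (interferon-alpha and interferon-beta). IFNGR1 and IFNGR2 form the receptor for interferon-gamma, and IFNLR1 pairs with IL10RB to bind the type III interferons (interferon-lambda). IL10RB is also the second chain of the IL-10 receptor, with IL10RA. The chains have no enzyme activity of their own and signal through bound JAK1, JAK2 and TYK2 kinases to transcription factors, among them STAT2 in a complex with IRF9. In the brain, microglia are the resident macrophages and respond to interferon-gamma and to the type I interferons.

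Nuclei of cortical tissue from naive C57BL6J mice, all labelled 6 weeks old, were profiled by single-nucleus RNA-seq with the 10x 3’ v3 chemistry. Each count is a unique molecular identifier (UMI), a random tag that marks a captured RNA molecule before amplification. There were 4 Wt mice (*Ifnar1*+/+) and 4 *Ifnar1*-/- mice, with 2 females (F1, F2) and 2 males (M1, M2) of each genotype. The *Ifnar1*-/- line is a constitutive knockout of the whole body and had been backcrossed to C57BL/6J, so no cell type was targeted. After filtering, 52089 nuclei remained of 56780, total UMIs per library ran from 44063346 to 58423423, and any pair of libraries shared 3 to 30 cell barcodes. Levels are given in CPM, the UMIs of a gene per 1000000 UMIs of all genes in the nuclei of a class, and each mouse gave 1 value. The 6 genes were left out of the genes used to cluster the nuclei. Classes rest on marker genes: glutamatergic neurons (26523 nuclei), GABAergic neurons (6587), oligodendrocytes (7089), microglia (4388), striatal projection neurons (1836), oligodendrocyte precursors (OPCs, 451), newly formed oligodendrocytes (213) and astrocytes (160). The summed level of 10 microglia markers ran from 19079 to 32034 CPM in microglia and from 92.1 to 174.0 CPM in glutamatergic neurons. Few astrocytes were recovered, and mice with under 10 nuclei of a class (Wt F1 for newly formed oligodendrocytes, Wt F2 and *Ifnar1*-/- M1 for astrocytes) were left out of its values.

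Of the 6 genes, 4 lie next to each other on chromosome 16, all on the plus strand, within 192.8 kb (GRCm38, GENCODE annotation). *Ifnar2* (ENSMUSG00000022971) runs from 91372783 to 91405589, *Il10rb* (ENSMUSG00000022969) from 91406164 to 91425834, *Ifnar1* (ENSMUSG00000022967) from 91485238 to 91507441 and *Ifngr2* (ENSMUSG00000022965) from 91547072 to 91565623. *Ifngr1* (ENSMUSG00000020009) is on chromosome 10 from 19591949 to 19610229, and *Ifnlr1* (ENSMUSG00000062157) is on chromosome 4 from 135686287 to 135708181. A readthrough gene, *Gm21970* (chromosome 16, 91391721 to 91419451, same strand), covers 42.3% of the span of *Ifnar2* and 67.6% of that of *Il10rb*. It had 10 UMIs itself, and reads that fit several genes are not counted by Cell Ranger, so the levels of *Ifnar2* and *Il10rb* are uncertain and may be too low.

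RefSeq (GRCm38.p6) held the promoter, from 250 bases before to 50 bases after the gene start, for 5 of the 6 genes, all but *Il10rb*. Those of *Ifnar1* (chr16:91484965-91485264), *Ifnar2* (chr16:91372533-91372832) and *Ifngr1* (chr10:19591699-19591998), all on the plus strand, are shown, and those of *Ifngr2* and *Ifnlr1* are not. Capitals mark the GC box (GGGCGG, or CCGCCC as read on the other strand) and the gamma-activated site (TTCNNNGAA).
Ifnar1: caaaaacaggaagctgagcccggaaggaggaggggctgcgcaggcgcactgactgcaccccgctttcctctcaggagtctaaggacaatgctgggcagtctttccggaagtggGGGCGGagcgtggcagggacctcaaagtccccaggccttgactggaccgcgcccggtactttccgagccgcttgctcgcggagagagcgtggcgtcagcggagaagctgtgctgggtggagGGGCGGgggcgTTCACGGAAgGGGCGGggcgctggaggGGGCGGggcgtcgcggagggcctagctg
Ifnar2: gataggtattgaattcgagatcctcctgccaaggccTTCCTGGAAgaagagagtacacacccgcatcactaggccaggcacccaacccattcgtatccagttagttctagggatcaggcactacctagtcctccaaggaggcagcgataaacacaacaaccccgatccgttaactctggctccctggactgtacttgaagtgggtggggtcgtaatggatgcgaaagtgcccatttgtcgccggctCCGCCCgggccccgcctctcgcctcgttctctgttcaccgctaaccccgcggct
Ifngr1: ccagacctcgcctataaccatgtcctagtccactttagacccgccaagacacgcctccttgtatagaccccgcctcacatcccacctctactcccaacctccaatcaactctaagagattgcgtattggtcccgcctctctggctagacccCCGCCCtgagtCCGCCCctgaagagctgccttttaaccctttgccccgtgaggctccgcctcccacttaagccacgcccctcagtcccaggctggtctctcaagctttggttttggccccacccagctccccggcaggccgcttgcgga
The GC box was found in 5 of these 5 promoters and in 35.7% of 32851 mouse promoters of the same length. The gamma-activated site was found in 2, once in *Ifnar1* and once in *Ifnar2*, against 8.30% of all promoters. The interferon-stimulated response element (searched as GAAA, any 2 bases and GAAA, 3.44% of all promoters) and the site of the macrophage factor PU.1 (GAGGAAGT, 3.20%) were found in none of the 5. Both strands were searched. These are matches of letters in a 300-base window and not measured binding sites.

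The first question was in which cortical cells the receptor genes are expressed. Microglia had the highest mean level of 5 of the 6 genes, and *Ifnlr1* was the exception. Of 16286 genes compared between microglia and glutamatergic neurons, 42.7% were higher in microglia and 30.3% lower (exact sign-flip permutation test over 8 mice, Benjamini-Hochberg adjusted over all genes compared), so a higher level in microglia was common among genes as a whole. The sizes of the differences are given gene by gene below, from 18 comparisons of 3 classes with glutamatergic neurons. With 8 mice the smallest p this exact test allows is 0.00781. P-values in this text measure the spread between mice.

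**Figure D1:**
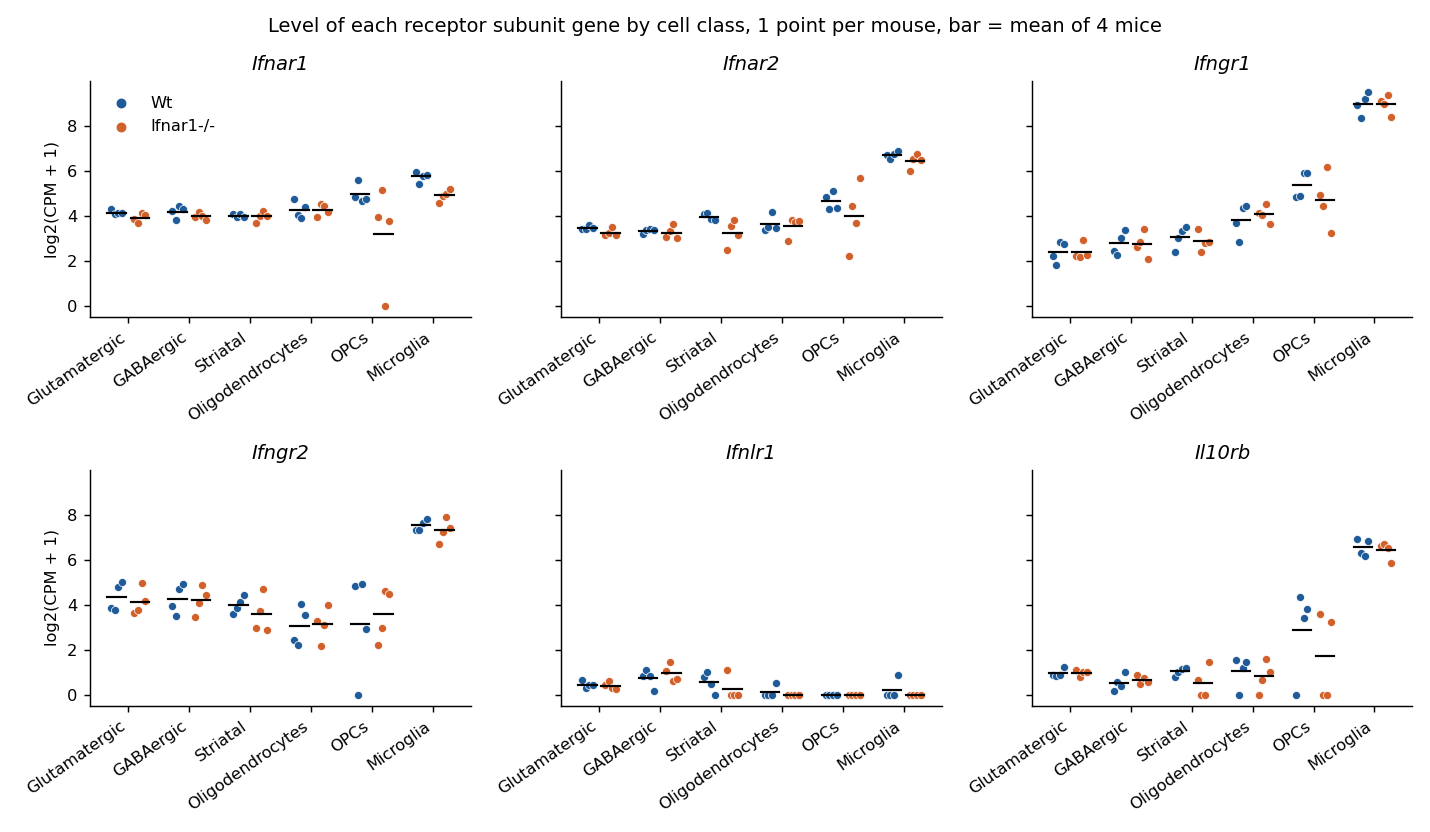
Level of each receptor gene in each cell class as log2(CPM + 1), with a point for each mouse and a bar at the mean. Microglia have the highest mean in 5 panels, with mean levels over all mice of 41.7 CPM for Ifnar1 and 519.6 CPM for Ifngr1, and Ifnlr1 stays at the bottom of the scale in every class.

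*Ifnar1*, the low-affinity chain of the type I receptor, was present at a similar level in neurons and oligodendrocytes and was higher in microglia. In microglia it was at 62.1, 42.4, 54.3 and 56.1 CPM in Wt F1, F2, M1 and M2 and at 23.0, 28.6, 30.8 and 36.2 CPM in the *Ifnar1*-/- mice in the same order. In glutamatergic neurons it was at 18.7, 16, 16.4 and 16.5 CPM in Wt and at 13.6, 12.1, 16.7 and 15.5 CPM in *Ifnar1*-/-. Every mouse had more in microglia than in glutamatergic neurons, and the mean was 2.66-fold higher (41.7 against 15.7 CPM, difference 26.0 ± 12.9, SD, n = 8, exact sign-flip permutation p = 0.00781, adjusted p = 0.0132 over all genes). GABAergic neurons (16.3 CPM, exact permutation p = 0.578, n = 8) and oligodendrocytes (18.9 CPM, exact permutation p = 0.0625, n = 8) did not differ from glutamatergic neurons beyond the spread between mice. Striatal projection neurons were at 15.2 ± 1.68 CPM, OPCs at 23.5 ± 14.6 CPM (28 UMIs) and astrocytes at 28.1 ± 12.7 CPM (12 UMIs, n = 6). In newly formed oligodendrocytes only 6 *Ifnar1* UMIs were counted over 7 mice. Astrocytes, with their 12 UMIs, had the second highest mean and were left out of the comparisons of neighbouring classes. Among the other 7 classes OPCs came after microglia, with a lower level in 6 of 8 mice, which did not pass (exact permutation p = 0.0391, adjusted p = 0.128 over 36 comparisons of neighbours for the 6 genes). From OPCs down to newly formed oligodendrocytes no neighbours in the order differed beyond their spread (exact permutation p of 0.148 or more).

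*Ifnar2*, the high-affinity chain of the same receptor, was far less even. In microglia it was at 103, 90.3, 107 and 118 CPM in Wt and at 63.3, 92.1, 108 and 89.8 CPM in *Ifnar1*-/-. In glutamatergic neurons the values were 9.93, 9.91, 11.1 and 10.1 CPM in Wt and 7.92, 8.40, 10.3 and 8.06 CPM in *Ifnar1*-/-. The lowest microglia value thus lay well above the highest neuronal value, and the mean was 10.2-fold higher (96.4 against 9.48 CPM, exact sign-flip permutation p = 0.00781, n = 8, adjusted p = 0.0132 over all genes). Newly formed oligodendrocytes came second, with 57.4 ± 24.2 CPM (40 UMIs, n = 7) and values from 21.5 to 92.6 CPM. They exceeded OPCs (23.5 ± 14.5 CPM) in 7 of 7 mice and were below microglia in 7 of 7 (exact permutation p = 0.0156 each, the smallest that 7 mice allow), but neither difference passed over the 36 comparisons of neighbouring classes (adjusted p = 0.0703 from the exact permutation test). Striatal projection neurons (12.0 ± 4.05 CPM), oligodendrocytes (11.5 ± 3.20 CPM), glutamatergic neurons and GABAergic neurons (9.0 ± 1.38 CPM) followed in a range in which no neighbours differed beyond the spread (exact permutation p of 0.0938 or more, n = 8).

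The ratio of the 2 type I chains separated the classes without any need for gene length. Written as *Ifnar2* over *Ifnar1* UMIs, it had a geometric mean over 8 mice of 0.605 for glutamatergic neurons, 0.555 for GABAergic neurons, 0.607 for oligodendrocytes and 2.37 for microglia. On the log2 scale the ratio in microglia ran from 0.73 to 1.80 over the 8 mice and that in glutamatergic neurons from -0.94 to -0.53, with no overlap. The difference between these classes was 1.97 ± 0.34 (SD, n = 8, exact sign-flip permutation p = 0.00781, higher in 8 of 8 mice, 6 ratio comparisons). Within Wt mice alone the microglial ratio was 1.94 and the glutamatergic ratio 0.608. GABAergic neurons (difference -0.13 ± 0.29, exact permutation p = 0.273, n = 8) and oligodendrocytes (0.00 ± 0.47, exact permutation p = 1, n = 8) did not differ from glutamatergic neurons. In newly formed oligodendrocytes the ratio was 5.27, from 40 and 6 UMIs. Because of the overlap with *Gm21970* the *Ifnar2* counts may be too low, so whether a ratio lies above or below 1 is not read.

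*Ifngr1*, the ligand-binding chain of the interferon-gamma receptor, had the largest difference in CPM between classes of the 6 genes. In microglia it was at 482, 326, 581 and 730 CPM in Wt and at 547, 508, 651 and 333 CPM in *Ifnar1*-/-. In glutamatergic neurons the values were 3.73, 2.58, 6.22 and 5.82 CPM in Wt and 3.67, 3.63, 6.75 and 3.84 CPM in *Ifnar1*-/-. The means, 519.6 and 4.53 CPM, differed 115-fold (exact sign-flip permutation p = 0.00781, n = 8, adjusted p = 0.0132 over all genes). *Ifngr1* in oligodendrocytes stood at 15.6 ± 5.40 CPM, above glutamatergic neurons in 8 of 8 mice (exact permutation p = 0.00781, adjusted p = 0.0118 over all genes), in a comparison in which 40% of 15679 genes were higher in oligodendrocytes and 38.3% lower. Newly formed oligodendrocytes (38.2 ± 28.5 CPM, 26 UMIs, n = 7) and OPCs (38.0 ± 22.0 CPM, 45 UMIs) did not differ from each other. GABAergic neurons, at 6.21 ± 2.48 CPM, were above glutamatergic neurons in 7 of 8 mice (exact permutation p = 0.0156, adjusted p = 0.0234 over all genes), where 47.7% of 15858 genes were higher in GABAergic neurons and 24.5% lower. Both neuronal levels were within the range that microglia markers reached in neurons (below), whose upper end was *P2ry12*. When each nucleus was thinned to 1000 UMIs the difference was 0.337 CPM (exact permutation p = 0.711, n = 8). Thinning left an *Ifngr1* UMI in 0.55% of GABAergic and 0.49% of glutamatergic nuclei, so few counts remained for that comparison.

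*Ifngr2*, the signalling chain of the same receptor, followed another order. In microglia it was at 159, 157, 199 and 223 CPM in Wt and at 104, 151, 236 and 169 CPM in *Ifnar1*-/-. In glutamatergic neurons it was at 13.6, 12.5, 26.6 and 31.6 CPM in Wt and at 11.3, 12.7, 30.1 and 16.9 CPM in *Ifnar1*-/-. Microglia were 9.0-fold higher (174.6 against 19.4 CPM, exact permutation p = 0.00781, n = 8, adjusted p = 0.0132 over all genes). Glutamatergic and GABAergic neurons (19.2 CPM) did not differ (exact permutation p = 0.867, n = 8). Oligodendrocytes, with 4.47, 3.72, 15.7 and 10.9 CPM in Wt and 8.71, 3.57, 7.59 and 14.9 CPM in *Ifnar1*-/-, were below glutamatergic neurons in 8 of 8 mice (mean 8.68 CPM, exact permutation p = 0.00781, adjusted p = 0.0118 over all genes). Newly formed oligodendrocytes had 4 UMIs of *Ifngr2* over 7 mice, at 6.03 ± 8.79 CPM.

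The ratio of *Ifngr2* to *Ifngr1* UMIs had geometric means of 4.13 for glutamatergic neurons, 3.04 for GABAergic neurons, 0.525 for oligodendrocytes and 0.340 for microglia. On the log2 scale microglia differed from glutamatergic neurons by -3.60 ± 0.34 and oligodendrocytes by -2.97 ± 0.69, lower in 8 of 8 mice each (exact sign-flip permutation p = 0.00781, n = 8, adjusted p = 0.0156 over the 6 ratio comparisons). The difference of GABAergic from glutamatergic neurons, -0.44 ± 0.44 with 1 of 8 mice the other way, did not pass (exact permutation p = 0.0391, n = 8, adjusted p = 0.0586). The neuronal ratios have in their denominator *Ifngr1* levels that are within the range of the microglia markers given below. The part of free RNA in these differences was not tested. Over the 8 mice the log2 ratio ran from 1.62 to 2.44 in glutamatergic neurons and from -2.37 to -0.98 in microglia, without overlap.

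**Figure D2:**
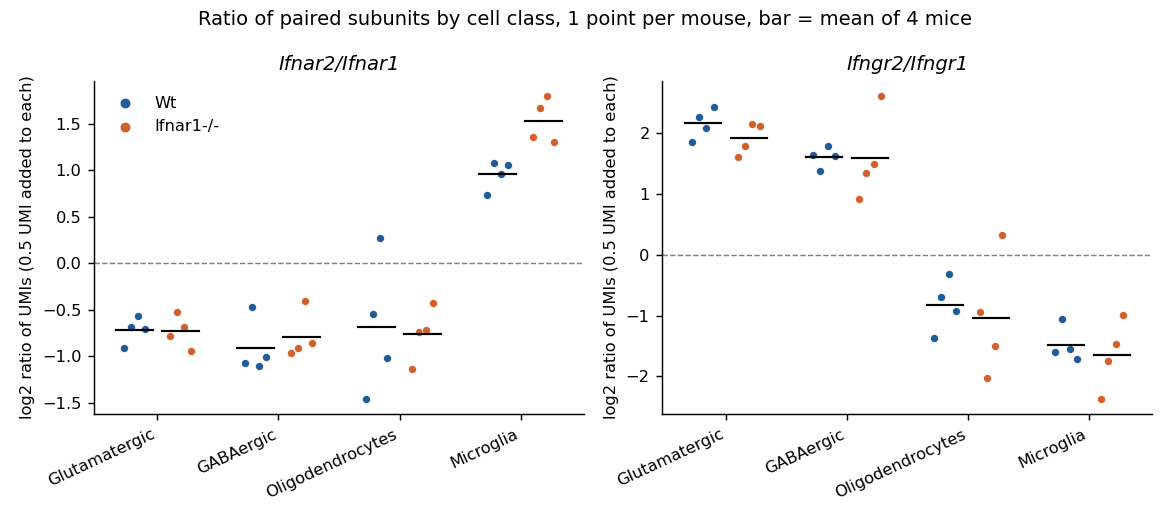
Log2 ratio of UMIs of Ifnar2 to Ifnar1 and of Ifngr2 to Ifngr1 in 4 cell classes, with a point for each mouse and a bar at the mean. Microglia are above every glutamatergic value for Ifnar2 to Ifnar1 (0.73 to 1.80 against -0.94 to -0.53) and below every glutamatergic value for Ifngr2 to Ifngr1 (-2.37 to -0.98 against 1.62 to 2.44).

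*Il10rb*, the chain shared by the interferon-lambda and IL-10 receptors, was far higher in microglia than in neurons or oligodendrocytes. It was at 118, 78.0, 70.6 and 111 CPM in microglia of Wt mice and at 97.8, 103, 91.1 and 56.7 CPM in *Ifnar1*-/-. The mean in glutamatergic neurons was 0.976 ± 0.216 CPM (248 UMIs), 93.1-fold lower (exact permutation p = 0.00781, n = 8, adjusted p = 0.0132 over all genes). Oligodendrocytes were at 1.09 ± 0.833 CPM (18 UMIs) and GABAergic neurons at 0.553 ± 0.296 CPM (27 UMIs). The latter were below glutamatergic neurons in 8 of 8 mice (exact permutation p = 0.00781), and the direction turned when nuclei were thinned to 1000 UMIs (0.109 CPM, exact permutation p = 0.734, n = 8). After thinning, 0.091% of GABAergic and 0.083% of glutamatergic nuclei held an *Il10rb* UMI, so the thinned comparison cannot decide the direction. OPCs had 7.72 ± 7.14 CPM (11 UMIs) and newly formed oligodendrocytes 9.45 ± 7.84 CPM (7 UMIs). *Il10ra*, the other chain of the IL-10 receptor and not 1 of the 6 genes, was at 308.0 ± 41.6 CPM in microglia and 0.758 CPM in glutamatergic neurons.

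*Ifnlr1*, the specific chain of the interferon-lambda receptor, was counted 184 times in all nuclei, and its UMIs were mostly neuronal. Glutamatergic nuclei were also deeper, with a median of 8856 UMIs against 1472 in microglia. Glutamatergic neurons had 91 UMIs (0.361 ± 0.135 CPM), GABAergic neurons 41 (0.871 ± 0.482 CPM) and striatal projection neurons 5, while microglia and oligodendrocytes had 1 each. OPCs, newly formed oligodendrocytes and astrocytes had none, which allows levels of up to 2.37, 3.98 and 7.80 CPM (the limit of a count of 0, 3 counts over the class). The gene was above the glutamatergic level in GABAergic neurons in 7 of 8 mice (exact permutation p = 0.0234, adjusted over all genes not given because its mean was below the minimum of 1 CPM). When nuclei were thinned to 1000 UMIs the same comparison gave 0.298 CPM (exact permutation p = 0.375, n = 8). It then had an *Ifnlr1* UMI in 0.091% of GABAergic and 0.057% of glutamatergic nuclei and cannot decide the difference. By cluster, the most UMIs, 41, were in 3479 nuclei of no named class led by *Avp*, *Baiap3* and *Zfhx3* (1.51 CPM, 95% Poisson interval 1.08 to 2.05). Pvalb interneurons had 23 UMIs in 2129 nuclei (1.28 CPM), and a glutamatergic cluster of 1712 nuclei with no layer name, led by *Galnt14*, *Sulf1*, *C1ql3* and *Npsr1*, had 35 (2.08 CPM, 95% Poisson interval 1.45 to 2.90, counting error only). Microglia, which had the highest level of *Il10rb*, its partner, had 1 UMI of *Ifnlr1* in 4388 nuclei. At that depth they were not below glutamatergic neurons beyond the spread between mice (0.110 against 0.361 CPM, exact permutation p = 0.0781, n = 8).

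Free RNA from broken cells can carry a gene into nuclei that do not express it, and the marker genes of the other classes were used as a gauge of it. Whether the UMIs of each marker in another class are free RNA was not tested. The 10 microglia markers stood in glutamatergic neurons at 0.0779% to 3.24% of their microglial level, with a median of 0.139%. *Ifnar1* (37.6%), *Ifngr2* (11.1%) and *Ifnar2* (9.83%) lay above all 10 markers. *Ifngr1* (0.872%) and *Il10rb* (1.07%) lay above 9 of 10 and below the highest, so their neuronal levels were within the range of the markers and are not read as expression. That reading rests on *P2ry12* (3.24%), since the next marker, *Cx3cr1*, was at 0.871%. *P2ry12* was at 55.7 CPM in glutamatergic neurons and 13.4 CPM in oligodendrocytes, and whether its neuronal UMIs are free RNA was not tested. In GABAergic neurons *Ifngr1* (1.2%) lay above 9, all but *P2ry12*, and *Il10rb* (0.609%) above 7. In oligodendrocytes *Ifngr1* (3.0%) lay above all 10 microglia markers and *Il10rb* (1.2%) above 8. In the other direction, the 8 glutamatergic markers stood in microglia at 6.34% to 118% of their neuronal level (median 38.8%) and in oligodendrocytes at 4.17% to 70% (median 20%). *Ifngr2* in oligodendrocytes, at 44.8% of its glutamatergic level, lay above 6 of the 8 and below 2, and *Ifnlr1* in microglia (30.3%) lay above 3, so both are within the range that neuronal RNA reached there. The other 5 genes were above all 8 neuronal markers in microglia.

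Within the neurons, the 12 subclasses named from marker genes differed little for *Ifnar1*, whose mean ran from 13.7 ± 1.37 CPM in layer 6 CT neurons to 18 ± 5.76 CPM in Lamp5 interneurons. *Ifnar2* was highest in layer 5/6 NP neurons (17.8 ± 4.93 CPM, 85 UMIs, 10.6 to 23.6 CPM over the mice) and lowest in layer 4 neurons (6.61 ± 1.57 CPM, 4.88 to 9.64 CPM), the extremes of the 12. *Ifngr2* was highest in Lamp5 interneurons (27.3 ± 15.2 CPM) and layer 5 ET neurons (25.6 ± 9.29 CPM), with the lowest mean in Pvalb interneurons (16.1 ± 5.83 CPM). *Ifngr1* and *Il10rb*, whose neuronal levels were within the range of the microglia markers, are not ranked by subclass. These are descriptions, and the subclasses were not tested against each other. An unnamed cluster of 212 nuclei led by *Apoe*, *Mrc1*, *Lyz2* and *Cd74* had *Ifnar1* at 30.6, *Ifnar2* at 34.5, *Ifngr1* at 106.6, *Ifngr2* at 39.5 and *Il10rb* at 32.6 CPM, each between the levels of neurons and of microglia. At clustering resolution 2 the cluster led by the same genes held 98 nuclei, and whether the 212 nuclei are a mixture was not tested.

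The next question was whether loss of *Ifnar1* went with a change in the receptor genes. The UMIs of *Ifnar1* were still counted in *Ifnar1*-/- mice, in all 8 libraries and in each of the 4 larger classes. The part of the gene that the allele lacks was not given in the sources used here, and counts per gene do not show from which part of a transcript a UMI came, so a UMI in these mice is not a check of the label. Over all nuclei *Ifnar1* was at 19.9, 16.2, 17.5 and 18.8 CPM in Wt and at 13.9, 14.5, 16.9 and 15.9 CPM in *Ifnar1*-/-. Its log2 fold change there was -0.24, with a standard error of 0.11 (adjusted p = 1.00, edgeR’s quasi-likelihood test with the Benjamini-Hochberg method over all genes tested, here and below), and 0.0501% of 19972 genes passed an adjusted p of 0.05.

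In microglia the groups did not overlap. *Ifnar1* there ran from 42.4 to 62.1 CPM in Wt (199 UMIs, 53.7 ± 8.25) and from 23.0 to 36.2 CPM in *Ifnar1*-/- (98 UMIs, 29.7 ± 5.46). The microglia of *Ifnar1*-/- F1 gave 4 of these UMIs, from 155 nuclei. The log2 fold change was -0.81 (standard error 0.22, unadjusted p = 0.00297) and was not called, with an edgeR adjusted p of 1, in a class where 0.105% of 9524 genes were called. Of 15552 genes, 1.27% had both groups apart with *Ifnar1*-/- lower in microglia. In the other classes the groups overlapped. The log2 fold change of *Ifnar1* was -0.21 for glutamatergic neurons (edgeR adjusted p = 1, 0.0594% of genes called) and -0.21 for GABAergic neurons (edgeR adjusted p = 1.00, 0.0274% called). It was -0.04 for oligodendrocytes (edgeR adjusted p = 1.00, 0.0632% called) and -0.02 for striatal projection neurons (edgeR adjusted p = 1.00, 0.0388% called). On the log2(CPM + 1) scale the genotype difference in microglia minus that in glutamatergic neurons was -0.62, and minus that in oligodendrocytes -0.83 (exact permutation p = 0.0286 each, 4 against 4 mice, the smallest this design allows, adjusted p = 0.0429 over 3 comparisons). The difference from GABAergic neurons, -0.64, gave an exact permutation p of 0.0571 (4 against 4 mice). Without *Ifnar1*-/- F1 the difference from glutamatergic neurons was -0.54 (exact permutation p = 0.0571, 4 against 3 mice), and without Wt F2, M1 or M2 that from oligodendrocytes was -0.85 to -0.70 (exact permutation p = 0.0571 each). With 1 mouse left out, the adjusted p of the exact permutation test over the 3 comparisons reached 0.0857 for both of these differences. The 8 glutamatergic markers summed to 299.6 to 749.8 CPM in the microglia of Wt mice and 199 to 811 CPM in those of *Ifnar1*-/- mice, overlapping ranges, and the 10 microglia markers to 19079 to 31822 and 19686 to 32034 CPM.

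**Figure D3:**
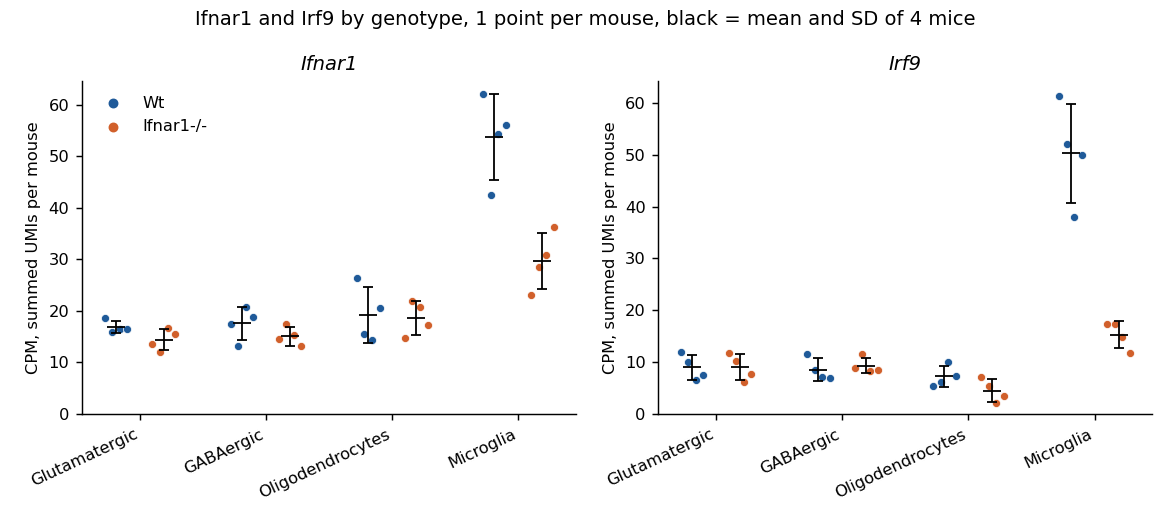
Level of Ifnar1 and of Irf9, a part of the factor that type I interferon receptors activate, in CPM by genotype in 4 cell classes, with a point for each mouse and black bars for the mean and SD (n = 4 each). In microglia no Ifnar1-/- mouse (23.0 to 36.2 CPM) reaches the lowest Wt mouse (42.4 CPM) for Ifnar1, nor for Irf9 (11.8 to 17.4 CPM against 38.0 to 61.3 CPM).

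The other 5 genes were not called between genotypes in any class. In microglia the log2 fold changes were -0.20 for *Ifnar2*, -0.05 for *Ifngr1*, -0.12 for *Ifngr2* and -0.16 for *Il10rb* (edgeR adjusted p = 1 for each), and standard errors of 0.18 to 0.27 leave changes of that size undecided. The ratio of *Ifnar2* to *Ifnar1* in microglia was 1.94 in Wt and 2.88 in *Ifnar1*-/-. *Ifnar2* in striatal projection neurons had a log2 fold change of -0.73 (standard error 0.31, unadjusted p = 0.0393, edgeR adjusted p = 1.00), with 81 UMIs in Wt and 43 in *Ifnar1*-/-. In all, 0 of 28 tests of a gene in a class or over all nuclei passed in edgeR, 0 in DESeq2, and 2 had an unadjusted p under 0.05. Over all genes the share with an unadjusted edgeR p under 0.05 was 1.48% (all nuclei) to 2.01% (striatal projection neurons), with 1.55% in microglia.

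Sex was a labelled condition too, and *Ifngr2* was called higher in males in 4 of the 5 classes tested and over all nuclei. In glutamatergic neurons females ran from 11.3 to 13.6 CPM and males from 16.9 to 31.6 CPM, without overlap (12.5 ± 0.935 against 26.3 ± 6.60, SD, n = 4 each), which is 1.01 on the log2 scale (standard error 0.16, adjusted p = 0.00171, edgeR with genotype as a covariate). This class had 30.3% of 18529 genes called by sex, and 20.7% of 15565 genes had males entirely above females, so such a difference was common. In GABAergic neurons the change was 0.95 (adjusted p = 0.00305 from edgeR, background 25.7%, males entirely above females for 16.7% of genes), with females from 9.96 to 16 CPM and males from 20.5 to 29.6 CPM. In microglia it was 0.47 (adjusted p = 0.0434 from edgeR, background 20%, and 9.18% of genes with males entirely above), with females from 104 to 159 CPM and males from 169 to 236 CPM. The summed markers of other cells moved in the same direction there: the 8 glutamatergic markers were at 199 to 615.7 CPM in microglia of females and 594.8 to 811 CPM in those of males, and the 10 oligodendrocyte markers at 324.7 to 707.7 and 438.1 to 1023 CPM. In oligodendrocytes, where 1 male was below 1 female, the change was 1.17 (adjusted p = 0.0237 from edgeR, background 22.9%). The glutamatergic markers in oligodendrocytes ran from 113.1 to 311.4 CPM in females and from 352.5 to 541.0 CPM in males, without overlap, and the *Ifngr2* level there was within the range of neuronal RNA. The part of these markers in the sex differences of microglia and oligodendrocytes was not tested. In striatal projection neurons *Ifngr2* was not called (0.49, standard error 0.34, adjusted p = 0.372 from edgeR, background 14.5%), with females from 6.93 to 13.5 CPM and males from 6.29 to 25.1 CPM. Over all nuclei it was 0.98 (adjusted p = 0.00210 from edgeR, background 27.1%, males entirely above for 19.9% of genes).

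*Ifngr1* UMIs in glutamatergic neurons were higher in males, by 0.68 (standard error 0.20, adjusted p = 0.0265 from edgeR), with females from 2.58 to 3.73 CPM and males from 3.84 to 6.75 CPM. These levels were within the range of the microglia markers, whose upper end was *P2ry12*, and are not read as expression by the neurons. The summed microglia markers in the same nuclei ran from 112.6 to 174.0 CPM in females and from 92.1 to 112.0 CPM in males, the opposite direction. *Ifngr1* was not called in GABAergic neurons, oligodendrocytes or microglia, and *Ifnar1*, *Ifnar2* and *Il10rb* were not called by sex in any class where they were tested. The *Ifngr2* calls in microglia and oligodendrocytes were lost with DESeq2 (adjusted p = 0.0895 and 0.0594). Leaving out 1 mouse ended the microglial call for every mouse but *Ifnar1*-/- M2 (0.38 to 0.55, edgeR adjusted p up to 0.141), and the oligodendrocyte call without Wt F1, F2 or M1 or *Ifnar1*-/- F2 or M2 (edgeR adjusted p up to 0.0805). The *Ifngr1* call was lost without Wt F2, M1 or M2 or *Ifnar1*-/- M1 (0.55 to 0.67, edgeR adjusted p up to 0.0929). The share of mitochondrially encoded UMIs in glutamatergic neurons was 0.120% to 0.306% in females and 0.337% to 0.794% in males, and *Junb* was at 7.91 to 23.0 CPM in females and 33.2 to 44.7 CPM in males. The labels give no batch of handling, so sex and handling cannot be told apart, and the part of these values in the sex difference was not tested.

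**Figure D4:**
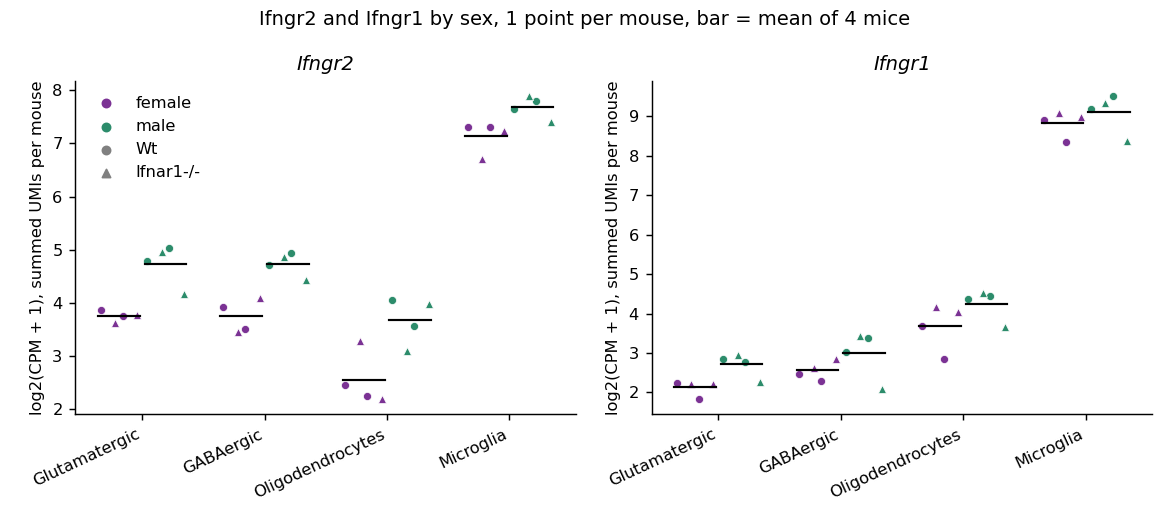
Level of Ifngr2 and Ifngr1 as log2(CPM + 1) by sex in 4 cell classes, a point for each mouse and a bar at the mean (n = 4 each, Wt and Ifnar1-/- marked). On the CPM scale, Ifngr2 in glutamatergic neurons runs from 11.3 to 13.6 CPM in females and from 16.9 to 31.6 CPM in males.

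The genes whose mean level over the 8 classes followed each receptor gene most closely were named by Pearson correlation of log2(CPM + 1) over 15466 genes. The classes share libraries and the correlation is a description. *Ifngr1* was closest to *Slc12a9* (r = 0.99), *Tgfbr1* and *Adam17*, and *Il10rb* to *Sppl3*, *4930568A12Rik* and *Tgfbr1*, a receptor for TGF-beta that reached 2108 CPM in microglia. *Ifnar2* was closest to *Ppp1r18*, *Gm47719* and *Tma7*, *Ifnar1* to *Snx17*, *Pdik1l* and *Rtl6*, and *Ifngr2* to *Zfp513*, *Rptoros* and *Gm3383*. *Ifnlr1* was closest to *Grip2*, *Fgf9* and *Gm45904*, all 3 highest in GABAergic neurons.

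Among the 46 listed genes of the same pathway, few UMIs of the interferons were counted. Of 18 type I interferon genes *Ifnk* had 52 UMIs and the other 17 had 6 in all, and *Ifng* had 2. Oligodendrocytes held 35 of the *Ifnk* UMIs (2.25 ± 0.562 CPM). *Il10* and *Il22*, listed as cytokines that use IL10RB, had 237 and 97 UMIs. UMIs of the receptor kinases were counted in every class, and the part of neuronal RNA in their glial levels was not tested. *Jak1* was at 213 ± 27.2 CPM in microglia and 62.8 ± 3.93 CPM in glutamatergic neurons, *Tyk2* at 78.7 ± 18.4 and 29.2 ± 3.34 CPM, and *Jak2* had its highest mean in oligodendrocytes (122 ± 15.7 CPM). Between genotypes, 15 of the 46 genes could be tested in microglia and 1 was called, against 0.105% of all genes there. It was *Irf9*, which fell by 1.79 on the log2 scale (standard error 0.26, adjusted p = 0.0308 from edgeR), from 38.0 to 61.3 CPM in Wt to 11.8 to 17.4 CPM in *Ifnar1*-/-. The call was lost at clustering resolution 2 (adjusted p = 0.17) and without Wt F1, F2 or M2 or *Ifnar1*-/- F1, M1 or M2 (edgeR adjusted p up to 0.166). Neither edgeR nor DESeq2 called a pathway gene between genotypes in 4 other classes, where edgeR tested 21 for glutamatergic neurons, 11 for striatal projection neurons, 15 for GABAergic neurons and 13 for oligodendrocytes. Of all genes, edgeR called 0.0274% (GABAergic neurons) to 0.0632% (oligodendrocytes) in these classes. There 1 pathway gene in oligodendrocytes had an unadjusted edgeR p under 0.05 (1.97% of all genes). In GABAergic neurons 1 pathway gene had an unadjusted DESeq2 p under 0.05 (1.13% of all genes). By sex, 6 of 21 were higher in males and 1 lower in glutamatergic neurons, against 30.3% of all genes called.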

How the data were processed

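Reads had been aligned by the authors (Cell Ranger, mm10, unspliced transcripts included), who deposited raw UMI counts per gene and nucleus, not normalized and not yet filtered (the labels also name Seurat 3.1.5). Nuclei with 200 to 6000 genes, more than 1000 UMIs and under 10% mitochondrial UMIs were kept, and Scrublet doublets were removed. Then 40 principal components of the variable genes were clustered (scanpy 1.11.5, resolution 1). The 6 receptor genes, the listed pathway genes and the sex-linked genes *Xist*, *Tsix*, *Ddx3y*, *Eif2s3y*, *Kdm5d* and *Uty* were left out of these variable genes. Clusters were named by markers. Counts were summed per mouse and class. Genotype and sex (with genotype as covariate) were tested with edgeR 4.0.16 (quasi-likelihood, TMM, filterByExpr, Benjamini-Hochberg), with DESeq2 1.42.0 as an alternative, and classes by exact tests (scipy 1.17.1). The scripts were tested on simulated data. CPM comparisons across all genes took genes with a mean of at least 1 CPM, and ratios used a pseudocount of 0.5 UMI. All 6 receptor genes were named in every class, with pathway genes called by genotype (at most 5 per class) and the 3 genes most like each receptor gene. The genes and lists were chosen with earlier results of these data known. Mice with the same label (F1 with F1) deviated together from their genotype means over all nuclei (r = 0.54 to 0.70), and no longer once sex means were removed (-0.22 and -0.11), so a shared label marks sex. The authors’ cell classes were not used here.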

Additional observations from a re-analysis of the deposited data

Results flagged for a closer look

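Of 50 groups of 4 mice checked with Dixon’s criterion, 5 held a mouse that stood apart, where chance gives about 1 in 20. *Ifnar2* in glutamatergic neurons was at 11.1 CPM in Wt M1 and at 9.91 to 10.1 CPM in the other Wt mice. *Ifnar2* in oligodendrocytes was at 17.4 CPM (40 UMIs) in Wt M1 and at 9.43 to 10.5 CPM in the others. In *Ifnar1*-/- F1 the same gene was at 6.53 CPM (12 UMIs), against 12.4 to 13.1 CPM in the other *Ifnar1*-/- mice. *Ifngr1* in glutamatergic neurons was at 6.75 CPM in *Ifnar1*-/- M1 and at 3.63 to 3.84 CPM in the others. *Il10rb* in glutamatergic neurons was at 1.35 CPM (38 UMIs) in Wt M2 and at 0.773 to 0.867 CPM in the others.

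The genotype difference of *Ifnar1* in microglia, itself not called by edgeR, differed from that in glutamatergic neurons and in oligodendrocytes. On the log2(CPM + 1) scale that of microglia minus that of glutamatergic neurons was -0.62, and minus that of oligodendrocytes -0.83 (exact permutation p = 0.0286 each, 4 against 4 mice, the smallest this design allows). Leaving out 1 mouse raised the exact permutation p of each to as much as 0.0571, and the adjusted p over the 3 class comparisons to as much as 0.0857. Minus that of GABAergic neurons it was -0.64, which did not pass (exact permutation p = 0.0571, 4 against 4 mice).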

How the results depend on the processing

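The differences of microglia from glutamatergic neurons in *Ifnar1*, *Ifnar2*, *Ifngr1*, *Ifngr2* and *Il10rb*, those of oligodendrocytes in *Ifngr1* and *Ifngr2*, and the microglial ratios kept direction and side of the threshold under every alternative run for them. Thinned to 1000 UMIs per nucleus, the GABAergic minus glutamatergic difference was 0.337 CPM for *Ifngr1*, 0.298 for *Ifnlr1* and 0.109 for *Il10rb* (reversed), and that of oligodendrocytes -0.645 for *Ifnlr1*. Thinning left few UMIs of these genes. On the log2(CPM + 1) scale oligodendrocytes differed by -0.0308 for *Il10rb*. A pseudocount of 1 UMI gave -0.45 for the GABAergic *Ifngr2* to *Ifngr1* ratio. With doublets kept, signs turned for *Ifngr2* in GABAergic minus glutamatergic neurons (0.0199 CPM) and, between genotypes on the log2 scale, for *Ifnar1* in striatal projection neurons (0.031), *Ifngr1* in glutamatergic neurons (0.0115) and *Ifngr2* in oligodendrocytes (-0.10). Sex as a covariate gave 0.0174 for *Ifngr1* in GABAergic and 0.018 in glutamatergic neurons. Without the genotype covariate *Ifnar1* by sex in microglia was -0.0026. The cause of these changes was not tested. *Ifnar1* between genotypes in microglia ran from -0.90 to -0.72 over all alternatives (edgeR or DESeq2 adjusted p from 0.469 to 1.00).

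With the shared mouse labels as a replicate block, *Ifngr1* between genotypes in glutamatergic neurons was 0.0042, *Ifnar1* in microglia was -0.77 (edgeR adjusted p = 0.856), and the block changed no call of a receptor gene: 0 of 28 passed.

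Over all nuclei, the share of all genes called by sex was 15.9% without Wt F2, 22% without Wt M1 and 31.4% without *Ifnar1*-/- M2. Leaving out 1 mouse in turn moved the number of calls of receptor genes by sex between 3 (without Wt F2 or Wt M1) and 7 (without *Ifnar1*-/- M2). It moved the *Ifngr1* sex difference in glutamatergic neurons between 0.55 and 0.84, that of *Ifnar1* between -0.0167 and 0.15, of *Ifnar1* and *Ifnar2* in GABAergic neurons between -0.0908 and 0.13 and between -0.0824 and 0.16, and of *Il10rb* over all nuclei between -0.15 and 0.37. The sex differences in striatal projection neurons ran from -0.0452 to 0.0762 for *Ifnar1* and from -0.31 to 0.0201 for *Ifnar2*. The GABAergic minus glutamatergic differences ran from -0.0191 to 1.14 CPM for *Ifnar1*, 1.40 to 2.00 for *Ifngr1*, -0.703 to 0.123 for *Ifngr2* and 0.406 to 0.611 for *Ifnlr1*. That of *Ifnlr1* in microglia ran from -0.362 to -0.205 and in oligodendrocytes from -0.362 to -0.268, and that of *Il10rb* in oligodendrocytes from -0.0310 to 0.302. The ratio differences ran from -0.12 to 0.0821 (*Ifnar2* to *Ifnar1*, oligodendrocytes) and from -0.57 to -0.38 (*Ifngr2* to *Ifngr1*, GABAergic neurons). The *Ifnar1* genotype difference in microglia minus that in other classes ran from -0.70 to -0.54 (glutamatergic), -0.80 to -0.55 (GABAergic) and -0.96 to -0.70 (oligodendrocytes).

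Genotype differences that changed sign without a mouse ran, in oligodendrocytes, from -0.19 to 0.16 for *Ifnar1*, -0.17 to 0.14 for *Ifnar2*, -0.063 to 0.39 for *Ifngr1* and -0.37 to 0.43 for *Ifngr2*. In GABAergic neurons they ran from -0.18 to 0.0456 for *Ifnar2*, -0.32 to 0.26 for *Ifngr1* and -0.30 to 0.18 for *Ifngr2*. In glutamatergic neurons they ran from -0.27 to 0.16 for *Ifngr1*, -0.59 to 0.0177 for *Ifngr2*, -0.52 to 0.0465 for *Ifnlr1* and -0.0286 to 0.27 for *Il10rb*. In microglia the ranges were -0.22 to 0.15 for *Ifngr1*, -0.32 to 0.0154 for *Ifngr2* and -0.31 to 0.0402 for *Il10rb*. Over all nuclei they were -0.47 to 0.10 for *Ifngr1*, -0.53 to 0.0434 for *Ifngr2* and -0.32 to 0.38 for *Ifnlr1*, and for *Ifnar1* in striatal projection neurons -0.0688 to 0.0498. *Ifnlr1* (184 UMIs) and the small classes are limited by depth.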
